A study of Homo sapiens with 8 samples.

Results

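The genes described here are 7 SRC family tyrosine kinases, LCK, FYN, LYN, BLK, FGR, SRC and YES1, and the peaks called around them in 4 chromatin immunoprecipitation (ChIP-seq) libraries. The 7 genes were chosen by earlier results on the same peak lists, so measured values chose them, and the values below are descriptions with no test. A peak counted for a gene where it shared at least 1 bp with the gene body or with the 20 kb on either side (build hg38), which makes up the locus of that gene. By this rule 44 of 50946 peaks with DMSO, 26 of 36742 in the library labelled ATRA, 50 of 54279 with POM and 30 of 47193 with ATRA+POM lay at the 7 loci, 150 peaks in all. Overlapping peaks from different lists were joined to 1 region, and the 7 loci held 58 of the 67328 regions. The outermost peak inside the rule was a DMSO peak 19.2 kb from YES1 with a fold enrichment of 5.69. The nearest one outside it was a POM peak 23.5 kb from FGR with a fold enrichment of 4.85.

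OPM-2 is an established human multiple myeloma cell line with the t(4;14) translocation. The cells were exposed for 72 h to the vehicle DMSO, to 1 µM all-trans retinoic acid (ATRA, which activates retinoic acid receptors), to 1 µM pomalidomide (POM, a drug that directs the cereblon ubiquitin ligase to IKZF1 and IKZF3), or to 1 µM of each together (ATRA+POM). The study asked which binding sites differ between these treatments, and its series text speaks of transcription factor binding. The antibody is not given in the sources used here. Each treatment had 1 ChIP library and 1 input library from this single line, so no difference could be set against a spread between replicates. The 3 treated lists are all compared with the same DMSO list.

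SRC family kinases are enzymes anchored at the inner face of the plasma membrane that phosphorylate tyrosines on immune receptors and adaptors. A phosphate on their tail, added by the kinase CSK and removed by the phosphatase CD45, keeps them folded and inactive. LCK is best known from T cells, LYN, BLK and FYN act in cells of the B lineage among others, FGR is mainly a kinase of myeloid cells, and SRC and YES1 are found in most tissues.

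The library labelled ATRA stood apart from the other 3. Its sequencing depth, estimated from the peaks' fold enrichment and p, was 0.133 of that behind the DMSO list, against 0.927 for POM and 0.902 for ATRA+POM. The reads at a peak's summit, estimated the same way, had medians of 78 (DMSO), 23 (ATRA), 72 (POM) and 65 (ATRA+POM). A peak of the ATRA list had at least 6 reads and 10% of them had fewer than 11. The 8 plasma cell markers all had a peak at their locus in every list (SDC1 and XBP1 among them), as did 1 or 2 of 4 B cell, 3 to 5 of 6 T cell, 2 or 3 of 4 myeloid and 2 or 3 of 3 NK cell markers. These are peaks and not expression, and MS4A1 and PAX5 of the B cell list had at most 1 peak in any library.

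Annotated start sites of 4 members could be set against the peaks. RefSeq (GRCh38.p14) gives 300 bp windows, 250 bp before to 50 bp after a start, for LCK, FYN, FGR and YES1, which have 9 such windows together. LYN, BLK and SRC were not matched. In the ATRA list 1 of the 9 windows held a peak, the start of YES1, and in each of the other 3 lists 2 did, that start and the inner start of FGR. Over all 34961 windows of the table on these chromosomes, 33.7% held a DMSO peak, 22.8% an ATRA peak, 30.6% a POM peak and 23.2% an ATRA+POM peak. The windows that bear on the results are shown 5′ to 3′ on the gene's strand, first the inner start of FGR, where the POM and DMSO lists differed most, then the starts of FGR and LCK without a peak, and last the starts of YES1 and of HDAC1, a neighbour of LCK, which held a peak in every list. The YES1 window had 300 bases covered with DMSO, 32 with ATRA, 128 with POM and 46 with ATRA+POM. At HDAC1 these numbers were 200, 8, 46 and 8. The start sites of YES1 and HDAC1 lay inside a peak in the DMSO list alone. Capitals mark GGGAA (the Ikaros core) and GGGCGG (the GC box), read on either strand.
FGR inner start, chr1:27626548-27626847, minus strand: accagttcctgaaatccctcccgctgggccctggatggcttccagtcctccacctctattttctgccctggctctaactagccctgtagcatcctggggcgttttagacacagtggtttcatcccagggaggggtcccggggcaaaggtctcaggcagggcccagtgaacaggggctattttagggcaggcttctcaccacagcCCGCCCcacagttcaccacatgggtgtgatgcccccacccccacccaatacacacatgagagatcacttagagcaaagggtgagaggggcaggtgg
FGR outer start, chr1:27635136-27635435, minus strand: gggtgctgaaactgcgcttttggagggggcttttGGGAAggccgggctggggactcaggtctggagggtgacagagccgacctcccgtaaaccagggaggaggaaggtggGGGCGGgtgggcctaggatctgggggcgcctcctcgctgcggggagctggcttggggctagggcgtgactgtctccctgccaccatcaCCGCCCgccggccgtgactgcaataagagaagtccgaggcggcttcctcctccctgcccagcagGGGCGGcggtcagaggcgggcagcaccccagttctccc
LCK outer start, chr1:32251015-32251314, plus strand: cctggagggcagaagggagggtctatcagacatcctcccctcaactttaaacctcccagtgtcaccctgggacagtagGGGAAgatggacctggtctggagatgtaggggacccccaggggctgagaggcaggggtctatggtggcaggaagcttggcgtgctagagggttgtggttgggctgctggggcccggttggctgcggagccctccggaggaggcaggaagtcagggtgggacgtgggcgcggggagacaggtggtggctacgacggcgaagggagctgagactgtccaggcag
LCK inner start, chr1:32273871-32274170, plus strand: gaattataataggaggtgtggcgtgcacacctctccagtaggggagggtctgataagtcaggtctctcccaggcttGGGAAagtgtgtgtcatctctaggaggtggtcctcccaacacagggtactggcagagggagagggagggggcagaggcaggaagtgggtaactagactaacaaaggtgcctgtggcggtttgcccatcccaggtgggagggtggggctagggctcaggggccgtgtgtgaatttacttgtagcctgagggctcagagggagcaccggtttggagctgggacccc
YES1 start, chr18:812193-812492, minus strand: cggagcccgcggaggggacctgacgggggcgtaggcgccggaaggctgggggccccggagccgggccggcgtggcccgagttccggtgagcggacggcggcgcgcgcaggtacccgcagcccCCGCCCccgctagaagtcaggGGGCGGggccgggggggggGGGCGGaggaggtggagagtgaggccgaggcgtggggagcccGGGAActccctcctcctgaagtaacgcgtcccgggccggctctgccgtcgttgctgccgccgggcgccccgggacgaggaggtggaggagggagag
HDAC1 start, chr1:32291833-32292132, plus strand: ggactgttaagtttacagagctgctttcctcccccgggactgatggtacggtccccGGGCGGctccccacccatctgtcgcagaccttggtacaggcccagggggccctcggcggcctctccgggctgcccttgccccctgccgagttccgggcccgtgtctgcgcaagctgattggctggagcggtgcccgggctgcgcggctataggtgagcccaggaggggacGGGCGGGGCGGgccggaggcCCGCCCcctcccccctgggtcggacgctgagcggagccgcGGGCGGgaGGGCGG

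The 6 windows differ in base composition. The YES1 and HDAC1 windows were 78.7% and 73.7% G or C with 39 and 28 CpG pairs, while the inner starts of FGR and LCK were 59.0% and 58.7% with 4 CpG pairs each, beside a median of 58.7% and 14 CpG pairs over all windows. GGGCGG was found 6 times at HDAC1, 3 times at YES1, 3 times at the outer and 1 time at the inner start of FGR, and 0 times at both LCK starts, and 45.0% of all 35116 windows of the table hold it. GGGAA was found 1 time at each LCK start, 1 time at the outer FGR start, 1 time at YES1, and 0 times at the inner FGR start and at HDAC1, with 65.0% of all windows holding it. None of the 9 member windows held AGGTCA (13.8% of all windows), GGGTCA (14.1%), TGACGTCA (1.85%), TGAGTCA (4.95%), a direct repeat of AGGTCA with 1, 2 or 5 bases between (0.0228%, 0.00285% and 0.00570%) or a pair of GAAA with 2 bases between (3.57%), on either strand. A match or its absence describes the letters of these windows and nothing else.

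Counted as called, the 7 loci differed in which list had the most peaks. LCK held 9 peaks with DMSO, 2 with ATRA, 8 with POM and 2 with ATRA+POM, so that its count was low in both lists of cells given ATRA. FGR, with 2, 0, 6 and 2 peaks in the same order, and SRC, with 0, 0, 2 and 2, had no list with more peaks than POM. FYN had 6, 3, 10 and 5. LYN had 9, 7, 7 and 4 and BLK had 8, 6, 7 and 5, both highest with DMSO. YES1 had 10, 8, 10 and 10, but with an equal number of strongest peaks per list its difference from DMSO was -3 with POM and -4 with ATRA+POM. The median over the members was 8, 3, 7 and 4 peaks, and over all 19974 protein-coding genes it was 2 in every list.

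**Figure D1:**
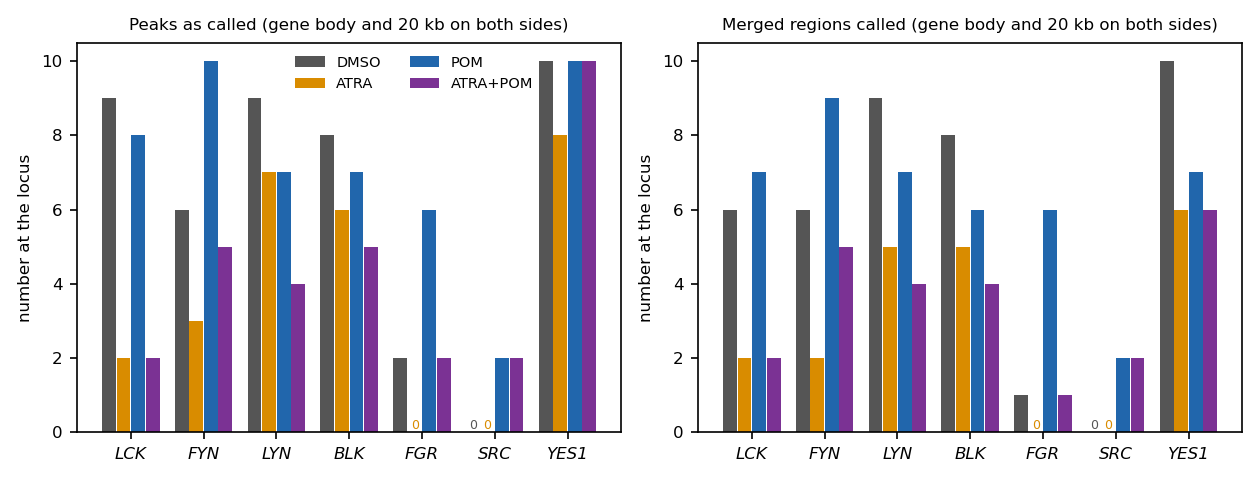
Number of peaks as called (left) and of merged regions called (right) at each of the 7 loci, 1 bar per list, with 0 written where a list had none. LCK has 9 and 8 peaks with DMSO and POM and 2 in both lists of cells given ATRA, FGR has most peaks with POM, and SRC has 2 with POM and 2 with ATRA+POM.

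Against DMSO, 0 of 7 members had more peaks in the ATRA list and 6 had fewer (all but SRC), where 15.9% of all genes had more and 41.9% fewer. With POM 3 members had more (FYN, FGR and SRC) and 3 fewer (LCK, LYN and BLK), where 29.0% of all genes had more and 26.1% fewer. With ATRA+POM 1 had more (SRC) and 4 fewer (LCK, FYN, LYN and BLK), beside 24.0% and 36.2% of all genes. For POM against DMSO, LCK was lower in peaks as called but not in merged regions, 6 with DMSO and 7 with POM. The merged regions of LYN (9 and 7) and BLK (8 and 6) went the same way as their peaks. The shares with POM and ATRA+POM are not far from those of all genes, and the members were chosen with these counts known. The shares of all genes take in genes with few or no peaks. Of all genes 72.6% had a DMSO peak, with a median of 2, against a median of 8 over the members. All genes were not matched to the members in locus length or number of peaks.

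Set against POM alone, ATRA+POM had more peaks at 0 members and fewer at 5 (LCK, FYN, LYN, BLK and FGR), beside 19.5% and 36.5% of all genes. With the stronger 50% of each list this became 3 more and 3 fewer, and the difference took the other sign at FYN, LYN and BLK. Set against ATRA alone it had more at 4 members and fewer at 2, beside 31.7% and 21.3% of all genes. SRC was the member with a peak with POM and none with DMSO, a pattern of 4.18% of all genes. FGR was the member with a peak with DMSO and none with ATRA, a pattern of 9.91% of all genes.

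LCK, the kinase that starts T cell receptor signalling, lies on chromosome 1 at 32251265-32286165 on the plus strand and had 8 regions. None of them covered either of its starts. The region nearest to a start, chr1:32249680-32250667, ends 0.598 kb upstream of the outer start. Its fold enrichment was 7.29 with DMSO and 25.7 with POM, from 43 (95% Poisson interval 31.1 to 57.9, counting error only) and 93 (75.1 to 114) summit reads, and it was called in neither list of cells given ATRA. Farther upstream, 2.22 and 2.98 kb from the outer start and inside the neighbouring gene FAM167B, were 2 regions called with POM alone, at fold enrichments of 9.02 and 7.28. The upstream side of LCK thus had 1 region with DMSO, 3 with POM and 0 in the other lists.

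Inside LCK there were 3 regions. The one at chr1:32265216-32265754, in the part of the gene between the outer and the inner start, had a fold enrichment of 6.07 with DMSO and 13.1 with POM. A neighbour at chr1:32264743-32264916 was called with DMSO alone at 4.64. The third, 5.64 kb into the gene, had 6.36 with DMSO and 5.75 with POM. Neither the ATRA nor the ATRA+POM list had any peak in the LCK gene body.

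The peaks that remain at the LCK locus in those lists lie at another gene. Their peaks lay to either side of the start of HDAC1, a class I histone deacetylase gene. That start lies within the 20 kb beyond the end of LCK. The region just upstream of that start, chr1:32291255-32291948, had fold enrichments of 34.0 with DMSO, 24.9 with ATRA, 35.8 with POM and 19.0 with ATRA+POM. The region at and beyond it, chr1:32292049-32292955, had 17.1, 10.3, 14.1 and 5.62. Peaks close to the HDAC1 start were thus called in all 4 lists, 3 with DMSO and POM and 2 with ATRA and ATRA+POM. The start site itself lay inside a DMSO peak and inside no peak of the other lists. In the ATRA and ATRA+POM lists the peaks covered 8 bases of the HDAC1 start window, against 200 with DMSO and 46 with POM. The other 6 DMSO peaks and 5 POM peaks of the locus lay in the LCK gene body or on its upstream side.

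The ATRA library's depth moves with these calls, and its part in them was not tested. Scaled to the depth of the ATRA library, the reads of the 4 DMSO regions at the gene body and upstream side would be 3.58 to 7.43, and those of the 5 POM regions 6.16 to 13.3, around or under the 11 reads below which 10% of ATRA peaks lie. Scaled to the depth of the ATRA+POM library, the same 5 POM regions would hold 41.8 to 90.5 reads. That is above the 25 reads below which 10% of ATRA+POM peaks lie. Over the genome, 17249 POM regions were missing from the ATRA+POM list. Their median was 37.0 reads at the ATRA+POM depth, and 3679 of them would hold fewer than 25. The median ratio of ATRA+POM to POM was 0.634 over the 31667 regions that both lists called. Whether the difference at LCK exceeds that between replicate libraries cannot be known from 1 library each.

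FGR, the SRC family kinase of granulocytes and monocytes, lies on chromosome 1 at 27612064-27635185 on the minus strand and had 6 regions. The strongest, chr1:27625781-27627371, covers the inner start printed above. Its fold enrichment was 6.23 in the DMSO list, 47.7 in the POM list and 19.2 in the ATRA+POM list, from 47 (34.5 to 62.5), 277 (245 to 312) and 121 (100.4 to 145) summit reads, and the ATRA list had no peak there. The ratio of POM to DMSO was 7.66, and that of ATRA+POM to DMSO 3.09. Of the 300 bases of the inner start window, the peaks covered 39 in the DMSO list, 300 in the POM list and 219 in the ATRA+POM list. The outer start had no peak in any list.

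The other 5 FGR regions were called with POM alone. Inside the gene, 2.43 kb past the outer start, chr1:27632270-27633242 had a fold enrichment of 17.5, and the remaining ones had 10.4, 6.76, 5.58 and 2.88. Scaled to the depth of the ATRA library, the DMSO reads at the inner start would be 6.24 and the POM reads 39.7. The part of depth in the missing ATRA peak was not tested.

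SRC, the founding kinase of the family, lies on chromosome 20 at 37344699-37406050. It had no peak with DMSO or ATRA and 2 neighbouring regions inside the gene with POM and with ATRA+POM. The first, chr20:37366145-37366424, had fold enrichments of 5.50 with POM and 2.90 with ATRA+POM. The second, chr20:37366667-37366896, had 6.23 and 4.44. These are weak peaks beside the medians of 9.49 and 7.99 over the whole POM and ATRA+POM lists. Their 122 and 99 summit reads at the second region are above the median reads of those lists, 72 and 65. At the first region the 102 reads with POM are above the POM median, and the 62 with ATRA+POM are below the ATRA+POM median.

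**Figure D2:**
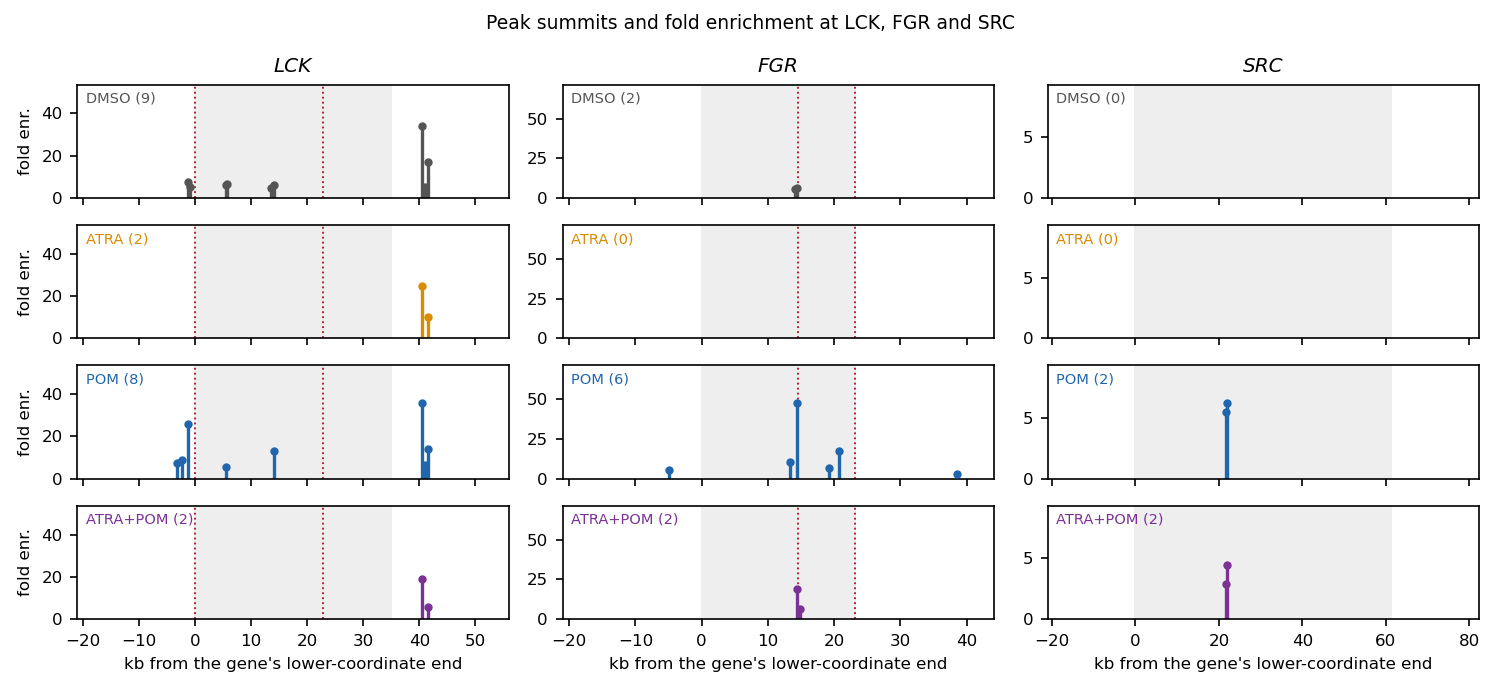
Peak summits at LCK, FGR and SRC in the 4 lists, with position as kb from the gene's lower-coordinate end (x axis) and the authors' fold enrichment (y axis, linear, 1 scale per gene). Grey marks the gene body, dotted lines the RefSeq starts of LCK and FGR, and numbers in brackets the peaks. The ATRA and ATRA+POM peaks at LCK both lie beyond the gene at about 41 kb, at HDAC1, and the tallest FGR peak, 47.7 with POM, stands at the inner start.

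FYN, a kinase of T cell, B cell and neural signalling, lies on chromosome 6 at 111660332-111873452 on the minus strand and had 10 regions, all inside the gene. The widest, chr6:111842037-111845645, lies 29.2 kb into the gene and had fold enrichments of 47.7 with DMSO, 40.2 with ATRA, 38.2 with POM and 35.0 with ATRA+POM. A second, chr6:111832110-111833972, had 24.7, 23.4, 33.7 and 47.0. Both were called in every list, and the second was highest in the ATRA+POM list although the median ratio of that list to each of the others was below 1.

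The other FYN regions varied between lists. At chr6:111769143-111769859, upstream of an inner start, the fold enrichment was 9.94 in the DMSO list, 21.2 in the POM list and 10.1 in the ATRA+POM list, with no ATRA peak. At chr6:111789138-111789646 it was 8.27 with POM and 11.0 with ATRA+POM, and at chr6:111766396-111766741 it was 7.21 and 3.51, with no peak in the other lists. Both regions were thus limited to the lists of cells given POM. No window at the 4 FYN starts held a peak, and the nearest region, 0.979 kb inside the outer starts, was called with DMSO (6.62) and POM (6.41).

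YES1, a widely expressed kinase close to SRC, lies on chromosome 18 at 721588-812753 on the minus strand and had 11 regions. Its start region, chr18:809627-813482, was 3856 bp wide and was called as 1 peak with DMSO and as 2 or 3 in the other lists. A summit 88.7 kb from the gene's lower end, inside the gene, was found in all 4 lists with fold enrichments of 32.8 with DMSO, 28.7 with ATRA, 12.2 with POM and 10.0 with ATRA+POM. Just upstream of the start, a separate peak was called with ATRA (16.3), POM (24.8) and ATRA+POM (10.4). Its summit lay 91.2 kb from the lower end with ATRA and 91.6 kb with POM and ATRA+POM. With POM the upstream peak was thus the stronger one, while with ATRA the inner one was.

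Beyond the lower end of YES1, chr18:710567-712712 lies at ENOSF1, a neighbouring gene that encodes an enolase superfamily member. The DMSO peak covered 132 bases of the ENOSF1 start window, and the peaks of the other lists stopped short of that window, inside the gene. Its fold enrichment was 32.2 with DMSO, 25.1 with ATRA, 11.8 with POM and 9.43 with ATRA+POM. Inside YES1, chr18:805027-806319 was called in all lists at 19.5, 14.3, 14.2 and 10.5. The equal peak numbers of YES1 with DMSO, POM and ATRA+POM hide a difference in regions: 10 were called with DMSO, 6 with ATRA, 7 with POM and 6 with ATRA+POM.

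**Figure D3:**
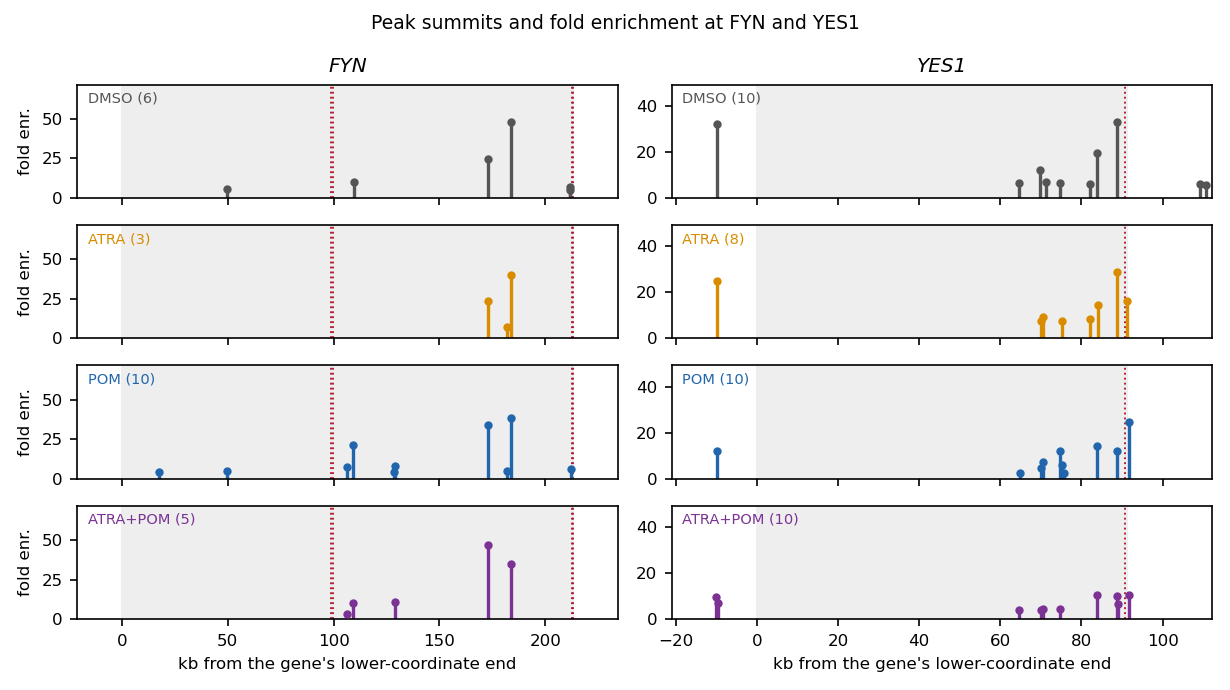
Peak summits at FYN and YES1 in the 4 lists, with position as kb from the gene's lower-coordinate end (x axis) and the authors' fold enrichment (y axis, linear, 1 scale per gene). Grey marks the gene body and dotted lines the RefSeq starts. The FYN peaks at about 173 and 184 kb stand in all 4 lists, and the YES1 summit at 88.7 kb is 32.8 with DMSO and 10.0 with ATRA+POM.

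BLK, the SRC family kinase most restricted to B cells, lies on chromosome 8 at 11494387-11564599 and had 9 regions. The first, chr8:11529838-11532196, was the strongest of all 58 regions in the DMSO and ATRA lists. Its fold enrichment was 79.2 with DMSO, 56.0 with ATRA, 10.6 with POM and 6.46 with ATRA+POM. The summit reads behind these values were 1362, 161, 150 and 79. DMSO was 7.50 times as high as POM and 12.3 times as high as ATRA+POM there, and the 161 reads of the shallow ATRA library exceed those of both deeper POM libraries.

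A second strong BLK region, chr8:11558812-11559323, was ordered differently. It had fold enrichments of 20.9 with DMSO, 12.3 with ATRA, 39.9 with POM and 19.7 with ATRA+POM, highest with POM. Beyond the gene, chr8:11566740-11569202 had 35.1, 26.2, 29.3 and 21.4 and varied little. Thus 2 regions of the same gene, 36.6 and 64.7 kb from its lower end, were highest in different lists.

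LYN, a kinase that both starts and restrains B cell receptor signalling, lies on chromosome 8 at 55879835-56014169 and had 12 regions, the most of any member. The region 18.0 kb before its lower end, chr8:55860011-55861813, had fold enrichments of 21.7 with DMSO, 18.9 with ATRA, 5.52 with POM and 6.32 with ATRA+POM. Inside the gene, chr8:55928477-55930005 was called with DMSO (15.7, 305 reads) and ATRA (9.27, 31 reads) alone. So were a pair of regions near 93 kb from the lower end, at 7.73 and 11.5 with DMSO and 7.64 and 7.99 with ATRA. At chr8:55928477-55930005 the DMSO reads, scaled to the POM depth, would be 283, beside the 26 reads below which 10% of POM peaks lie. The cause of the missing POM peak was not tested. Over the genome, 14801 DMSO regions were missing from the POM list. Their median was 38.9 reads at the POM depth, and 3415 of them would hold fewer than 26.

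The opposite arrangement was seen 127 kb from the lower end of LYN. There chr8:56006033-56007714 was called with POM at 10.8 (177 reads) and with ATRA+POM at 19.6 (263 reads) and in neither of the other lists. A weaker region at 95.8 kb, chr8:55975520-55975753, had 4.91 and 6.40 in the same lists alone. LYN thus held 3 regions called with DMSO and ATRA alone and 2 called with POM and ATRA+POM alone. It also held 2 called with DMSO alone and 2 called with DMSO and POM alone. The latter lay at its lower end, with 5.04 and 5.54 with DMSO and 8.55 and 5.95 with POM.

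**Figure D4:**
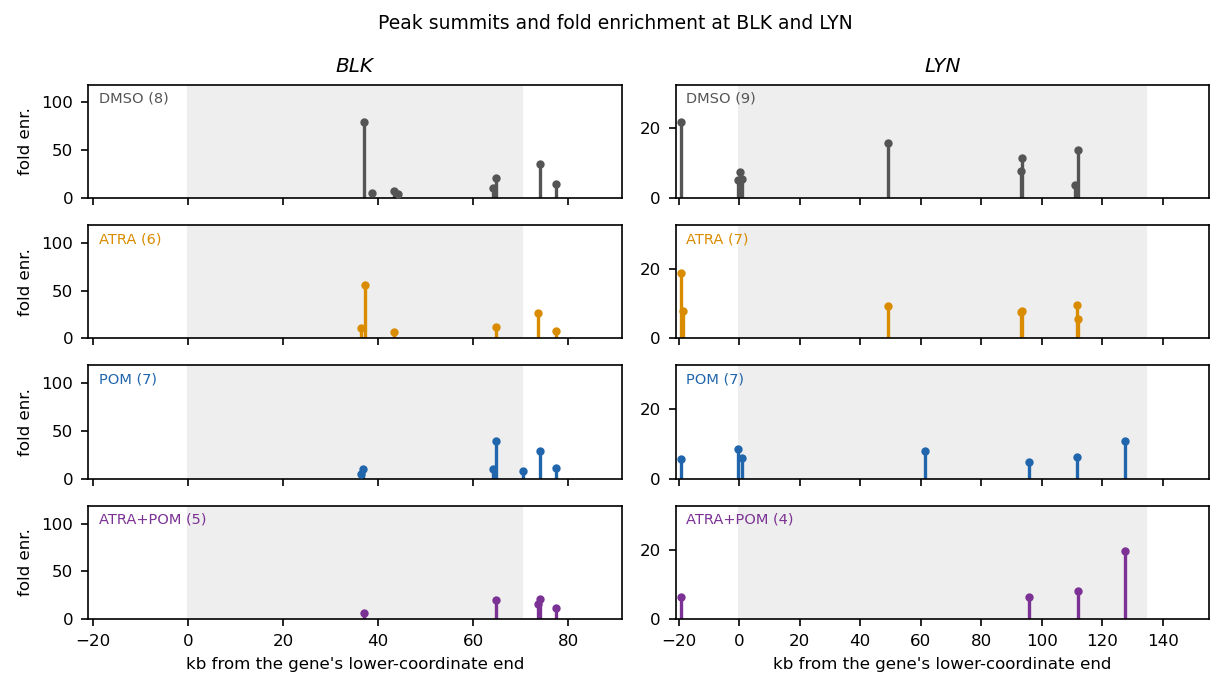
Peak summits at BLK and LYN in the 4 lists, with position as kb from the gene's lower-coordinate end (x axis) and the authors' fold enrichment (y axis, linear, 1 scale per gene). Grey marks the gene body and numbers in brackets the peaks. The BLK summit at about 37 kb stands at 79.2 with DMSO and 6.46 with ATRA+POM, and the LYN summit at about 127 kb is in the POM and ATRA+POM lists alone.

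Over all 58 regions, 15 were called in all 4 lists (25.9%, beside 28.8% of all 67328 regions), 9 with DMSO alone (15.5% beside 16.3%) and 12 with POM alone (20.7% beside 14.3%). Those called with DMSO and POM alone numbered 8 (13.8% beside 7.49%), and 3 of them lay at LCK. Another 6 were called with POM and ATRA+POM alone (10.3% beside 9.60%), at FYN, LYN and SRC, and 5 with DMSO and ATRA alone (8.62% beside 4.11%), of which 3 lay at LYN, 1 at BLK and 1 at YES1. The last 3 were called with DMSO, POM and ATRA+POM, and no member region was called with ATRA alone or with ATRA+POM alone. FGR held 5 of the 12 regions of POM alone.

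The DMSO list called 40 of the 58 regions, ATRA 20, POM 44 and ATRA+POM 24, beside 70.7%, 37.4%, 72.7% and 53.8% of all regions. All 20 ATRA regions were also DMSO regions. Of the 20 DMSO regions that the ATRA list did not call, 18 would hold fewer than 11 reads at the ATRA depth, as would 20281 of the 22535 such regions of the genome. Without the ATRA list there were 59 regions, of which 18 were called in all 3 lists, 14 with DMSO alone, 12 with POM alone, 9 with DMSO and POM and 6 with POM and ATRA+POM. The same patterns made up 37.4%, 20.5%, 14.3%, 11.4% and 9.62% of all regions of these 3 lists.

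**Figure D5:**
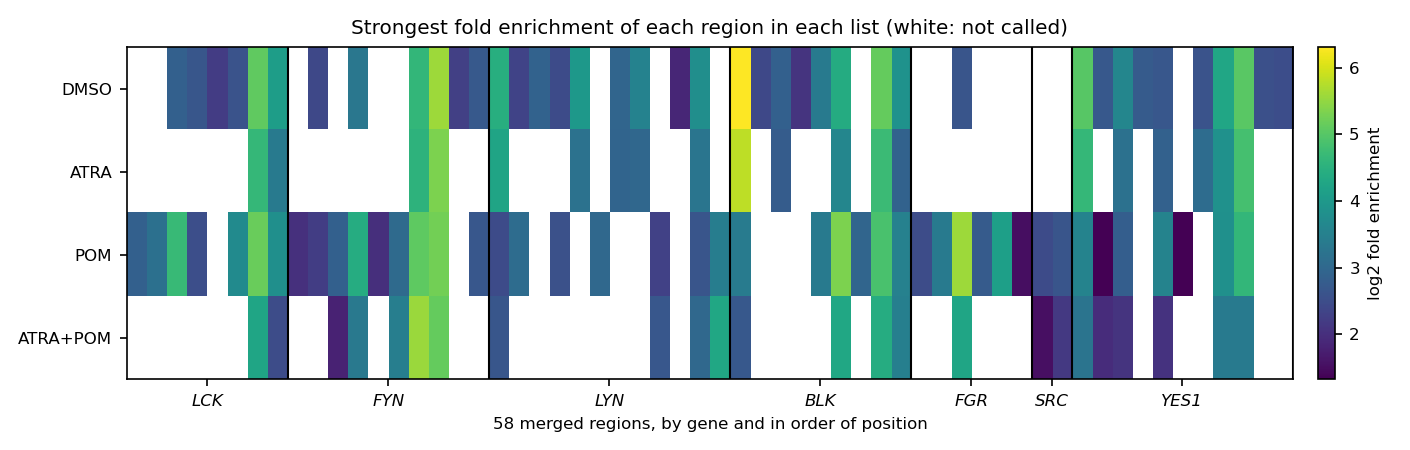
Strongest fold enrichment of each of the 58 merged regions (columns, grouped by gene and in order of position) in the 4 lists (rows), on a log2 colour scale, white where a list did not call the region. The first BLK region is the brightest in the DMSO row, the FGR columns are filled almost only in the POM row, and the SRC columns only in the rows of POM and ATRA+POM.

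Where 2 lists called the same region, the ratio of fold enrichments was read against the median ratio over all such regions of the genome, and 2-fold from that median was taken as called. Between ATRA and DMSO (median ratio 0.749), 0 of 20 member regions were 2-fold higher and 0 were 2-fold lower, beside 1.36% and 2.99% of all 25095 shared regions. Between POM and DMSO (median ratio 1.06), 4 of 26 were higher, at LCK (2 regions), FYN and the inner FGR start, beside 13.1% of all 32829. In the other direction 5 were lower, at LYN (2), BLK, the ENOSF1 region and YES1, beside 11.7%. Relative to the median, the POM to DMSO ratio on the log2 scale was 2.85 at the inner FGR start, 1.73 upstream of LCK and -2.99 at the first BLK region.

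Between ATRA+POM and DMSO (median ratio 0.678), 2 of 18 member regions were higher, at FYN and FGR, beside 16.0% of all 26253 shared regions. Another 5 were lower, at the HDAC1 start, LYN, BLK, the ENOSF1 region and the YES1 start, beside 12.7%. Between ATRA+POM and POM (median ratio 0.634), 6 of 24 were higher, at FYN (2), LYN (3) and YES1, beside 10.2% of all 31667. In the other direction 0 were lower, beside 8.14%. Relative to the median, the log2 ratios were 1.07 and 1.14 at FYN, 1.03, 1.04 and 1.51 at LYN and 1.28 at YES1. The YES1 region was weak, with 2.52 from 40 reads with POM and 3.87 from 43 reads with ATRA+POM. The 3 LYN regions were 1.29 to 1.81 times as high with ATRA+POM as with POM. The strongest value of a region was used, which can compare different summits. At the YES1 start it did so for DMSO against POM and against ATRA+POM. The summit inside YES1 had 12.2 with POM against 32.8 with DMSO, which the count of lower regions does not include. At LYN, chr8:55991113-55992527 had its strongest summit 112.2 kb from the lower end with DMSO and ATRA+POM, and 111.8 kb with POM.

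For the gene lists that follow, the background is the share of all genes with more and with fewer peaks than DMSO, which was 15.9% and 41.9% for ATRA, 29.0% and 26.1% for POM, and 24.0% and 36.2% for ATRA+POM. Of 20 kinases, phosphatases, adaptors and ubiquitin ligases that restrain or release the family, 5 had more and 10 fewer peaks with ATRA than with DMSO, 8 more and 5 fewer with POM, and 6 more and 9 fewer with ATRA+POM. PAG1, the membrane adaptor that recruits CSK, had 1 peak with POM and 0 in the other lists. SLA, an adaptor that limits antigen receptor levels, had 2, 0, 2 and 3. The medians were 4, 3, 3.5 and 4 peaks.

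Of 20 receptors and coreceptors that the kinases act with, 0 had more and 9 fewer peaks with ATRA than with DMSO, 8 more and 5 fewer with POM, and 4 more and 8 fewer with ATRA+POM. CD5, a restraining coreceptor, had 0 peaks with DMSO and ATRA, 5 with POM and 4 with ATRA+POM. CD4, the coreceptor that binds LCK, had 3, 1, 6 and 0. IL2RB had 3, 0, 2 and 3 and CD79B had 2, 0, 3 and 1. CD36 had 1 peak, with ATRA+POM, and CD3E 1, with POM, and the windows of CD3D and CD3G share their 2 peaks per list. The CD4 locus resembled that of LCK in having more peaks with DMSO and POM than in either list of cells given ATRA.

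Of 22 substrates and adaptors downstream, 2 had more and 14 fewer peaks with ATRA than with DMSO, 7 more and 6 fewer with POM, and 3 more and 12 fewer with ATRA+POM. PTK2, the focal adhesion kinase, had 3 peaks with DMSO, 0 with ATRA and 1 in both POM lists. The medians were 6, 2.5, 6 and 5 peaks, beside 2 over all genes.

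The pattern of LCK over the 4 lists was not its own. Among all protein-coding genes whose windows do not overlap that of LCK, TRPM5 had the same 9, 2, 8 and 2 peaks. The next by Euclidean distance of log2(1 + peaks) over the 4 lists were PARP6 (7, 2, 8 and 2, distance 0.32), NUDT19 and its neighbour RGS9BP (7, 2, 7 and 2, distance 0.36, from shared peaks) and ZNF512B (9, 3, 8 and 2, distance 0.42). The strongest fold enrichment at TRPM5 was 14.5 with DMSO, 9.68 with ATRA, 15.8 with POM and 12.8 with ATRA+POM.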

How the data were processed

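ChIP and input libraries of OPM-2 cells were grouped by the treatment in their labels, giving 4 treatments with 1 ChIP library each. The files used were the 4 deposited peak lists, 1 per ChIP library and none pooled, with coordinates in hg38, as the submitters' processing notes state. Which antibody, aligner and peak caller were used is not given in the sources used here. The authors' deposited score equals, in whole numbers, the −log10 p multiplied by 10. The deposited fold enrichment is a ratio of summit to local background within 1 library, and was not scaled between libraries. Each peak's −log10 p and its −log10 q were also deposited by the authors. The summit offset is also the authors' value.

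Peaks on chromosomes 1 to 22 and X were assigned to 19974 protein-coding genes of a RefSeq table of the same build, by an overlap of at least 1 bp with the gene body and 20 kb on both sides. Peaks sharing 1 bp were merged into regions. Summit reads were inferred from fold and p under a Poisson model with 1 added to reads and background; they came out whole within 0.02 for 95.5% of ATRA peaks and for nearly all peaks of the other lists. Relative depth was the lowest background value found in 20 or more peaks, over the smallest width of a peak. Both are inferences and not stated by the submitters. Intervals of reads are 95% exact Poisson intervals and cover counting error only. No test was made, since each treatment had 1 ChIP library. Ratios of fold enrichment were read against the median of all shared regions, with 2-fold as the limit.

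The members and gene lists were chosen with earlier results of these data known. All 7 members are named. Of the other lists, genes with a peak in 1 list of a comparison and none in the other are named, at most 6 per list, and HDAC1, ENOSF1 and FAM167B are named as neighbours. A list of related kinases is not reported here. Alternatives tried were 36742 strongest peaks per list, the stronger 50% of the peaks, a fold enrichment of at least 10, flanks of 5 and 50 kb, peaks within 500 bp merged and an overlap of 50%, and, chosen after seeing the data, the patterns without the ATRA list. Overlap counts and recovered reads were tested on simulated data. The input libraries were not used beyond what the peak lists hold. The work used pandas 2.3.3 with numpy 2.4.6, scipy 1.17.1 for Poisson intervals and matplotlib 3.10.9 for plots, in Python 3.11.15.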

Additional observations from a re-analysis of the deposited data

How the results depend on the processing

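With 1 library per treatment no result has an error from replicates, and the depth of the ATRA library, 0.133 of DMSO, limits what its list can call. No paired analysis was possible because each treatment had 1 ChIP library and no result comes from a test. An overlap of 50% of the shorter peak moved none of its 8 counts by more than 1.5 times. In what follows, the cause of each change was not tested beyond the smaller or larger number of peaks that the setting itself leaves.

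With the stronger 50% of each list, the peaks at the loci numbered 18 with DMSO, 14 with ATRA, 19 with POM and 20 with ATRA+POM, the last now the highest. Members with more and fewer peaks numbered 3 and 1 for ATRA+POM against DMSO and 3 and 3 for ATRA+POM against POM, and 0 had fewer for ATRA+POM against ATRA. The regions called in all 4 lists numbered 9, in POM and ATRA+POM alone 2, in DMSO and ATRA alone 1, in DMSO alone 3, in POM alone 5 and in DMSO and POM alone 1. Fold enrichment was 2-fold higher at 0 and lower at 2 member regions for POM over DMSO, higher at 1 for ATRA+POM over DMSO and higher at 2 for ATRA+POM over POM. The difference in peaks took the other sign for POM minus DMSO at LCK (2), for ATRA+POM minus DMSO at FYN (1), for ATRA+POM minus POM at FYN (1), LYN (3) and BLK (2), and for ATRA+POM minus ATRA at LYN (1) and BLK (1).

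With a fold enrichment of at least 10, the peaks numbered 17 with DMSO, 13 with ATRA, 21 with POM and 14 with ATRA+POM. Members with fewer peaks numbered 2 for ATRA against DMSO and 1 for POM against DMSO, and those with more numbered 2 for ATRA+POM against DMSO, 1 against POM and 2 against ATRA. The regions called in all 4 lists numbered 7, in POM and ATRA+POM alone 3, in DMSO and ATRA alone 1, in DMSO alone 4, in POM alone 5 and in DMSO and POM alone 1. Fold enrichment was 2-fold higher at 0 and lower at 2 for POM over DMSO, higher at 1 and lower at 1 for ATRA+POM over DMSO and higher at 2 for ATRA+POM over POM. The difference took the other sign for POM minus DMSO at LCK (2), for ATRA+POM minus DMSO at FYN (2), for ATRA+POM minus POM at FYN (1) and for ATRA+POM minus ATRA at YES1 (-1). At LCK, ATRA minus DMSO was then 0, since the LCK peaks that the ATRA list lacks were under 10 with DMSO.

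With 36742 peaks per list, 2 members had more peaks for ATRA+POM against DMSO, 4 regions were called in DMSO and POM alone, 2 were 2-fold higher for POM over DMSO, and ATRA+POM minus ATRA at YES1 was -2. With 5 kb on both sides, 2 members had more peaks for ATRA+POM against DMSO, and fold enrichment was 2-fold lower at 3 for POM over DMSO and at 2 for ATRA+POM over DMSO. With 50 kb, 5 members had fewer peaks for POM against DMSO, and those with more numbered 1 for ATRA+POM against POM and 2 against ATRA. In that setting 8 regions were called in DMSO and ATRA alone and 15 in DMSO alone, 1 was 2-fold lower for ATRA+POM over POM, and SRC took the other sign for POM minus DMSO (-1) and ATRA+POM minus DMSO (-2). With peaks within 500 bp merged, 3 regions were called in DMSO alone and 2 were 2-fold higher for POM over DMSO. Without the ATRA list, 14 were called in DMSO alone.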
